A study of Danio rerio with 15 samples.

Results

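The mitochondrial carrier family, written SLC25 in gene symbols, was followed in zebrafish larvae after laser injury of a vein. Its members were the gene IDs of the deposited expression table whose symbol begins with slc25a, together with ucp1, ucp2 and ucp3, that reached at least 1 FPKM in at least 3 of 15 libraries. FPKM is a read level divided by transcript length and library size. Of 62 gene IDs with such a symbol, 49 met the filter, out of 32520 gene IDs in the table. The 49 members carried 44 distinct symbols, because 10 of them shared 5 symbols as duplicated zebrafish copies, and those copies are told apart below by their Ensembl ID. Whether the submitters' counting split reads between similar copies is not given in the sources used here, so values of copies that share a symbol are uncertain. The filter used the same levels as the tests, so counts over the members are descriptions.

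Carriers of this family sit mostly in the inner mitochondrial membrane, where each moves particular small molecules between the matrix and the rest of the cell. They bring phosphate and ADP in and send ATP out, and they carry citrate, malate, amino acids, carnitine esters, nucleotides, cofactors and iron. The uncoupling proteins are a branch of the same family; in mammals UCP1 lets protons return to the matrix and releases heat in brown fat, whereas UCP2 and UCP3 have roles that are less settled.

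Every group had the genotype Tg (flk1:eGFP; gata1:dsRed), in which the flk1 promoter drives a green reporter in endothelium and the gata1 promoter a red one in erythroid cells. Uninjured venous tissue without a thrombus served as control. The other groups were thrombus tissue collected 1, 3, 6 and 12 h after laser damage of the endothelium near the anal pore, and each of the 5 groups had 3 libraries. Laser-capture microdissection took the cells from frozen tissue, sliced into 20 sections that were 20 µm thick. The labels give no larval age and do not tie a library to an animal, so libraries may share or pool animals; the p-values measure only the spread between these libraries and may be too small. There was no uninjured tissue at the later times, so time in the experiment and injury cannot be told apart. The control held no thrombus and every other group was thrombus tissue. Injury and the kind of tissue captured therefore cannot be told apart in the comparisons with the control.

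Whole read counts could be recovered from the FPKM and summed to between 12486986 and 15651694 per library. At that depth 3 reads on a transcript of 2000 bases correspond to 0.0958 to 0.120 FPKM, and 47 of the 49 carriers averaged at least 20 reads per library. The captured tissue was not purely venous by its transcripts. Skeletal muscle markers summed to between 96401 and 208870 FPKM per library and endothelial markers to between 12.8 and 78.0, with the vascular cadherin cdh5 at 0.2 to 5.1 FPKM. Neural markers were high in the 1 h library of column B, at 388 FPKM in sum, and in 12 h library B, at 1262, against 39.8 to 156 in the other libraries. The letter of that 1 h column occurs in no 1 h sample title, so it counts as a 1 h library with no replicate label.

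As a family the carriers were moderately expressed, and a few genes held nearly all of the transcript. The mean level of a member had a median of 4.30 FPKM, against 2.90 over the 13706 gene IDs that met the filter, and ranged from 0.382 to 5554. Of the 49 members, 24 were above 0 in all 15 libraries, which is 49.0% against 40.9% of all gene IDs that met the filter. The other 25 were listed at 0 in at least 1 library. Members listed at 0 numbered 4 in each control library, 7 to 11 at 1 h, 9 to 10 at 3 h, 5 to 9 at 6 h and 4 to 6 at 12 h. Of all gene IDs, 13988 to 14288 were above 0 in the control libraries, 11443 to 12788 at 1 h, 12857 to 13282 at 3 h, 12917 to 14012 at 6 h and 13737 to 17422 at 12 h.

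SLC25A5, an ADP/ATP carrier that exchanges matrix ATP for cytosolic ADP, was the most abundant member. It held 64.3% to 78.3% of the family's summed FPKM, with a median of 75.6%. SLC25A3 (ENSDARG00000025566), the phosphate carrier, added 9.41% to 15.5%. The family total was 7131 to 7709 FPKM in the control libraries, 7003 to 8294 at 1 h, 8415 to 9006 at 3 h, 6406 to 7098 at 6 h and 7085 to 7878 at 12 h. In FPKM the 3 h totals were therefore above every other library's, and the 6 h totals were below every control library's. The order of the 3 h totals depends on the measure. As a share of the library's summed FPKM, the family held 1.23% in 3 h library B and 1.24% in 1 h column B.

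The share of the family held by UCP1, UCP2 and ucp3 together differed between the times. It was 0.771% to 2.05% in the control, 2.33% to 10.9% at 1 h, 11.4% to 19.0% at 3 h, 1.23% to 2.87% at 6 h and 1.46% to 2.87% at 12 h. In FPKM the 3 genes summed to 55.0 to 158 in the control and 1028 to 1652 at 3 h. The 43 members that are neither these 3 nor ADP/ATP or phosphate carriers summed to between 400 and 711 FPKM in each library. These sums contain genes whose separate tests follow and were not tested themselves.

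**Figure D1:**
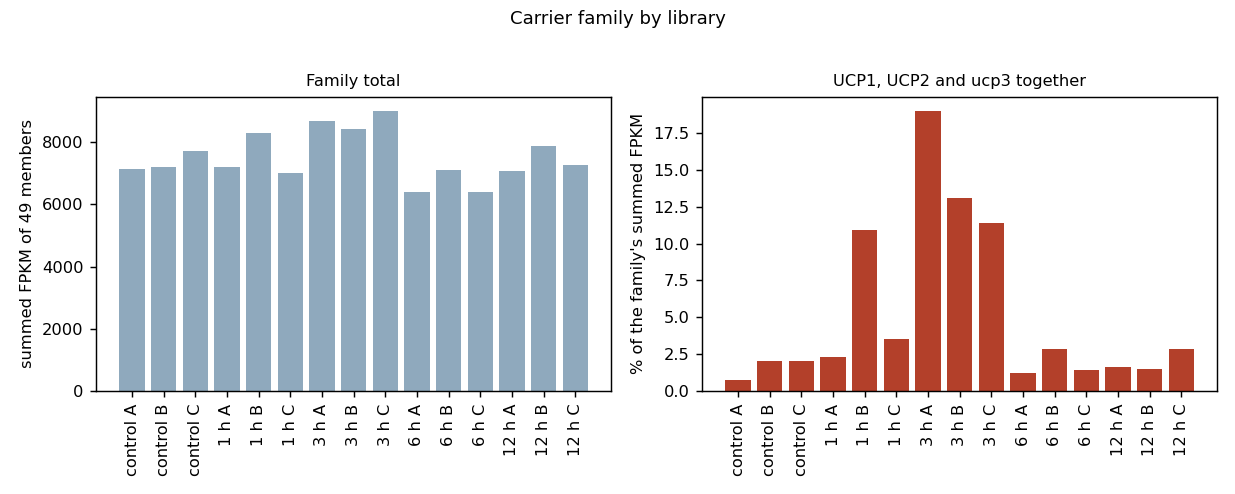
The carrier family in each of the 15 libraries, as bars that start at 0: summed FPKM of the 49 members on the left and the percent of it held by UCP1, UCP2 and ucp3 on the right. The uncoupling proteins hold 11.4% to 19.0% of the family in the 3 libraries taken at 3 h and 10.9% in the 1 h library of column B.

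Differences between groups were tested per gene ID with limma on log2(FPKM + 1), with 1 fit of all 15 libraries and Benjamini-Hochberg adjustment over 13706 gene IDs. A gene was said to rise or fall where the adjusted p was under 0.05, and the log2 differences below are on that scale, which understates changes of low genes. A moderated F test over the 5 groups called 5 of the 49 carriers, 10.2% against 1.58% of all gene IDs tested. They were UCP1, UCP2, ucp3, SLC25A33 and SLC25A48. With each of the 15 libraries left out in turn, the F calls of ucp3 and SLC25A48 held in all 15 fits. That of UCP2 held in 14, that of UCP1 in 11 and that of SLC25A33 in 7. The pairwise comparisons called SLC25A48 at 1 h, UCP2 and ucp3 at 3 h, and UCP1, UCP2, ucp3 and SLC25A33 between 3 h and 6 h. The comparisons with the control share the 3 control libraries, and those of 3 h with the control and of 6 h with 3 h share the 3 h libraries.

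UCP2 was the carrier with the smallest p at 3 h. In the control libraries A, B and C it stood at 45.9, 115 and 100.3 FPKM. At 1 h it was at 136, 657 and 196 FPKM in columns A, B and C, and at 3 h at 1223, 834 and 551. Each 3 h library was thus above every control library, and the 1 h libraries also lay above the control, with the column B library far above the others of its group. At 6 h the levels were 57.0, 176 and 81.3 FPKM, and at 12 h 95.6, 88.0 and 160, so both later groups overlapped the control. UCP2 rose at 3 h, with a ratio of mean FPKM of 9.99 and a log2 difference of 3.33 ± 0.55 (SE, n = 3 per group; limma adjusted p = 0.00719). It then fell by 3.13 ± 0.55 on the log2 scale from 3 h to 6 h (limma adjusted p = 0.0112), a call lost without 3 h A, 6 h A or 6 h C (limma adjusted p = 0.0662, 0.0661 and 0.0517). The 1 h difference of 1.67 ± 0.55 missed the threshold (limma adjusted p = 0.332). Among the 49 carriers UCP2 had rank 2 or 3 by FPKM in each 3 h library.

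ucp3, an uncoupling protein that mammals express mainly in skeletal muscle, was likewise highest at 3 h. Its control libraries held 6.86, 31.3 and 43.9 FPKM, the 1 h libraries 25.6, 182 and 46.1, and the 3 h libraries 355, 215 and 451. The 3 h libraries were above all others, and the 1 h libraries overlapped the control. Levels at 6 h were 21.7, 28.0 and 8.43 FPKM and at 12 h 9.01, 8.49 and 10.0. All 3 values at 12 h lay within the span of the control libraries. ucp3 rose at 3 h with a ratio of means of 12.4 and a log2 difference of 3.86 ± 0.70 (limma adjusted p = 0.0124), and fell by 4.15 ± 0.70 from 3 h to 6 h (limma adjusted p = 0.00945). The rise was lost without control A or 3 h A (limma adjusted p = 0.0730 and 0.0526) and the fall without 6 h C (limma adjusted p = 0.0517). In the RefSeq gene table, which is of another assembly, ucp2 and ucp3 are neighbours with 0 genes between them.

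UCP1 was lower than UCP2 in all 15 libraries, and lower than ucp3 in those of the control, 1 h, 3 h and 6 h but not of 12 h. Its levels were 2.17, 0.0509 and 13.5 FPKM in the control libraries, 6.08, 65.5 and 4.14 at 1 h, and 74.6, 53.8 and 25.9 at 3 h. At 6 h it was listed at 0 in libraries A and B and at 0.0554 FPKM in library C, which is 2 reads. At 12 h it stood at 11.3, 18.3 and 38.7 FPKM. The 3 h and 12 h libraries therefore lay above every 6 h library, and the 3 h libraries lay above the control, whose own values were widely spread. UCP1 fell from 3 h to 6 h by 5.56 ± 0.94 on the log2 scale (limma adjusted p = 0.00945); with reads this few at 6 h that size depends on the pseudocount, and it was -8.67 with a pseudocount of 0.1. The call was lost without 3 h A (limma adjusted p = 0.0516). Its 3 h difference with the control, 3.72 ± 0.94 with a ratio of means of 9.79, missed the threshold (limma adjusted p = 0.0626). So did its difference between 12 h and 6 h, 4.38 ± 0.94 (limma adjusted p = 0.0799).

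The other relatives of the uncoupling proteins did not pass the test in any of these comparisons. SLC25A27 had no reads in the control and reached 7.58 FPKM in the 1 h library of column B and 4.92 FPKM in 6 h library C. It met the filter only through 1 h and 6 h libraries, so its differences at those times are descriptions. slc25a14 stayed at or under 1.44 FPKM in the 15 libraries. Both are brain-expressed in mammals.

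**Figure D2:**
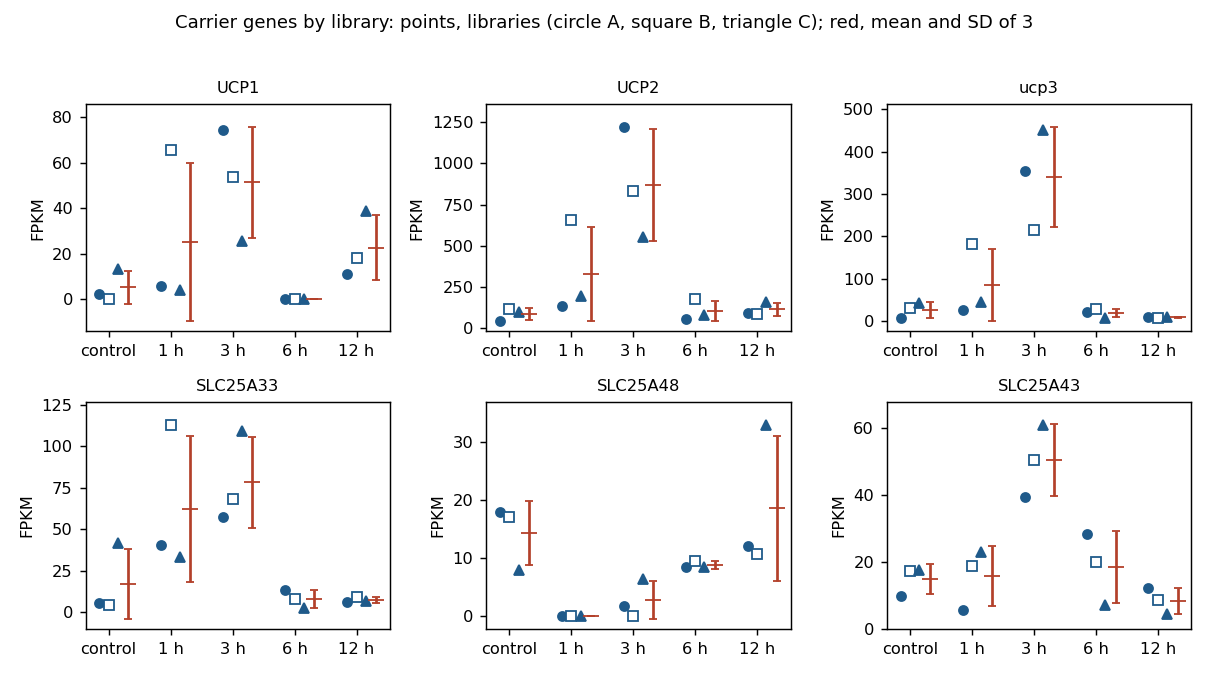
FPKM of 6 carriers in each library, by group on a linear axis; points are libraries (circle A, open square B, triangle C) and red marks give the mean with the SD of 3. UCP2 lies at 551 to 1223 FPKM at 3 h against 45.9 to 115 in the control, and SLC25A48 lies near 0 at 1 h.

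SLC25A33, which carries pyrimidine nucleotides into mitochondria in human cells, was the other carrier that fell after 3 h. It stood at 5.44, 4.35 and 41.6 FPKM in the control libraries, 40.5, 113 and 33.4 at 1 h and 57.3, 68.1 and 109 at 3 h. It then stood at 13.4, 8.21 and 2.58 FPKM at 6 h and 6.17, 9.26 and 6.83 at 12 h. The 3 h libraries were above those of the control, 6 h and 12 h, and control library C lay above 1 h columns A and C. The fall from 3 h to 6 h was 3.29 ± 0.73 on the log2 scale (limma adjusted p = 0.0340). Leaving out any 1 of the 6 libraries compared ended that call, with limma adjusted p between 0.0627 and 0.145. Neither the 1 h difference with the control, 2.26 ± 0.73, nor that at 3 h, 2.75 ± 0.73, passed the test (limma adjusted p = 0.306 and 0.0746).

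SLC25A48, reported in mammalian cells as a mitochondrial choline transporter, was the carrier that fell at 1 h. Control libraries A, B and C held 18.0, 17.2 and 7.91 FPKM. The 1 h columns A and B were listed at 0, and column C held 0.0994 FPKM, which is 2 reads. The 3 h libraries held 1.80, 0.0514 and 6.35 FPKM, so the 1 h and 3 h groups both lay below every control library. Levels at 6 h were 8.47, 9.59 and 8.44 FPKM and at 12 h 12.2, 10.7 and 33.1, within or above the span of the control. SLC25A48 fell at 1 h by 3.82 ± 0.67 on the log2 scale (limma adjusted p = 0.0229), a size that depends on the pseudocount and was -6.75 with 0.1. That call was 1 of 49 carriers, or 2.04%, against 0.102% of all gene IDs that fell and 0.226% called either way. It was lost without control library A, control library B or 1 h column A (limma adjusted p = 0.137, 0.111 and 0.0793). At 3 h its difference of -2.38 ± 0.67 missed the threshold (limma adjusted p = 0.0921).

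At 3 h the 2 carriers called were 4.08% of the members, against 0.817% of all gene IDs that rose and 1.36% called either way. The groups did not overlap for more of them: 9 carriers had all 3 h libraries above all control libraries, which is 18.4% against 7.65% of all gene IDs, and 8 had them all below, 16.3% against 11.5%. The 9 higher ones were UCP1, UCP2, ucp3, SLC25A33, SLC25A43, SLC25A47, SLC25A25 (ENSDARG00000010572), SLC25A38 (ENSDARG00000059805) and SLC25A1 (ENSDARG00000076381). SLC25A38 (ENSDARG00000059805) met the filter only through the 3 h libraries and 1 h column A. Its separation from the control therefore follows from the filter, and the share of 18.4% is a description. The 8 lower ones were SLC25A12, SLC25A20, SLC25A34, SLC25A35, slc25a36b, slc25a39, SLC25A48 and slc25a51b. The median log2 difference of the 49 was -0.11, beside -0.12 over all gene IDs tested, so the middle of the family lay where that of all gene IDs did. Of these 17 carriers UCP2 and ucp3 passed the test.

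**Figure D3:**
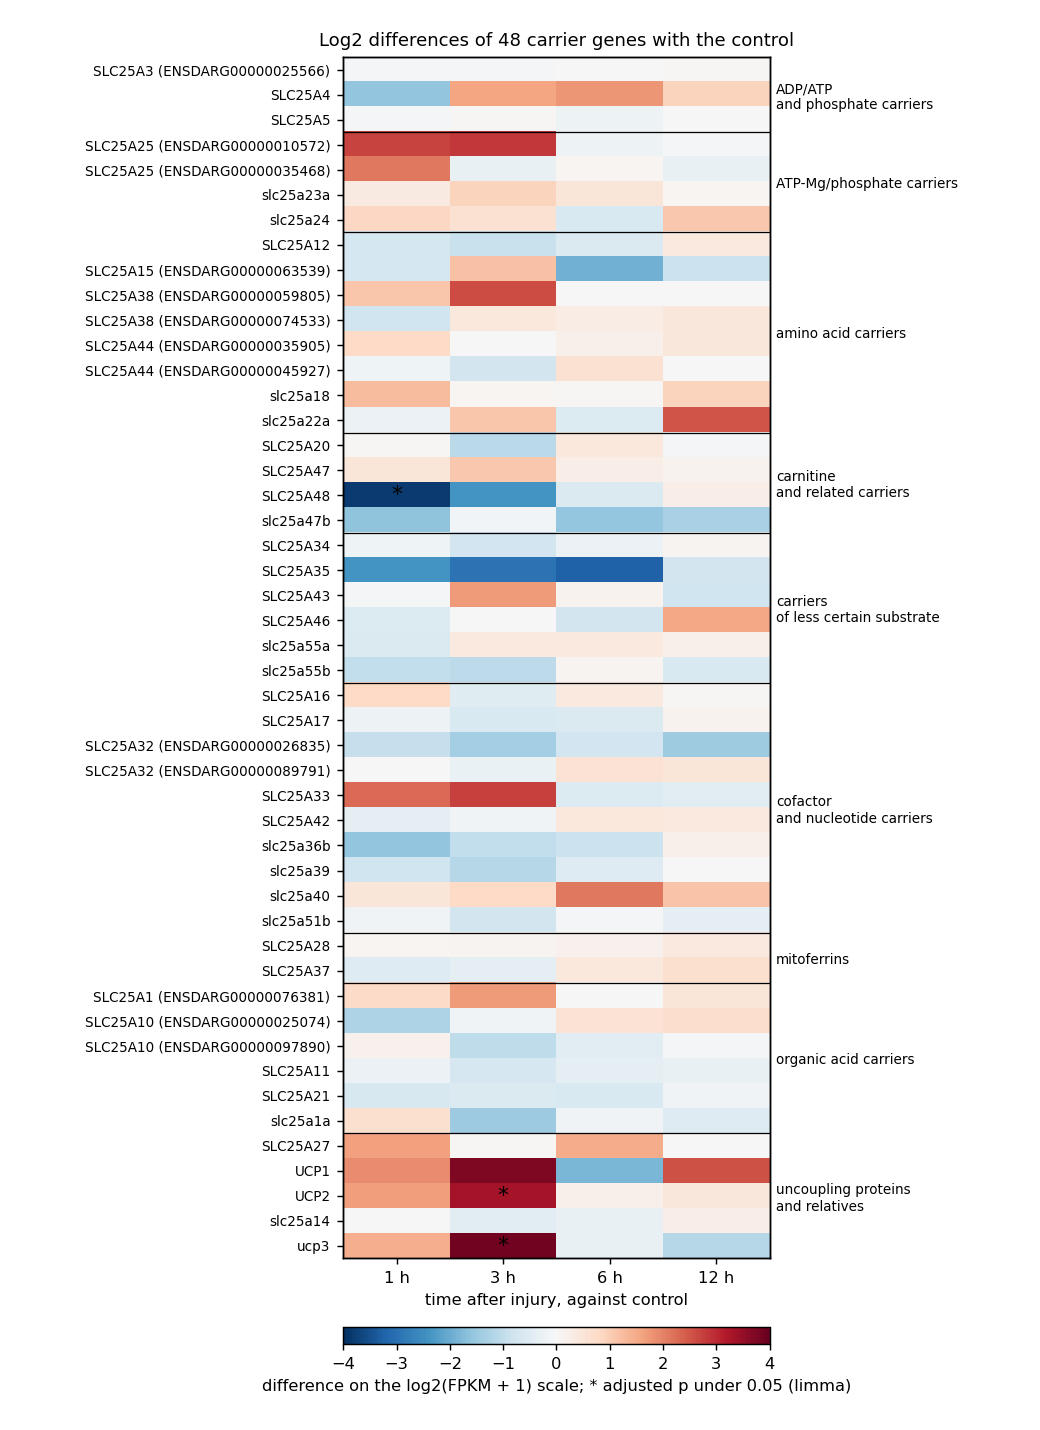
Log2 differences of 48 carriers with the control at 1, 3, 6 and 12 h, grouped by what the carriers move; colour runs from -4 (blue) to 4 (red) on the log2(FPKM + 1) scale and a star marks an adjusted p under 0.05. The darkest red cells are UCP1, UCP2 and ucp3 at 3 h, and the darkest blue cell is SLC25A48 at 1 h.

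Carriers of ATP, ADP and phosphate showed no called difference in the 7 comparisons. SLC25A5 lay between 4787 and 6283 FPKM in the 15 libraries. Its 6 h libraries, at 4787, 5071 and 4912 FPKM, were below the control's 5392, 5635 and 6028 and below all libraries at 1, 3 and 12 h. These are FPKM as deposited. Median ratio scaling, an alternative normalization, divides 12 h libraries A, B and C by 1.22, 1.09 and 1.34. For 6 h libraries A, B and C its factors are 1.01, 1.04 and 0.94, so the order of 6 h and 12 h depends on the scaling. SLC25A3 (ENSDARG00000025566) lay between 759 and 1098 FPKM, with every group overlapping the control. SLC25A4, the ADP/ATP carrier typical of heart and skeletal muscle in mammals, was far less even. It stood at 126, 7.04 and 127 FPKM in the control libraries, 156, 3.12 and 6.82 at 1 h, 72.6, 208 and 217 at 3 h, 167, 193 and 154 at 6 h and 86.8, 112 and 85.1 at 12 h. Control library B and the 1 h columns B and C were thus low, and the 6 h libraries lay above the control without passing the test, at 1.76 ± 1.09 (limma adjusted p = 0.981).

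**Figure D4:**
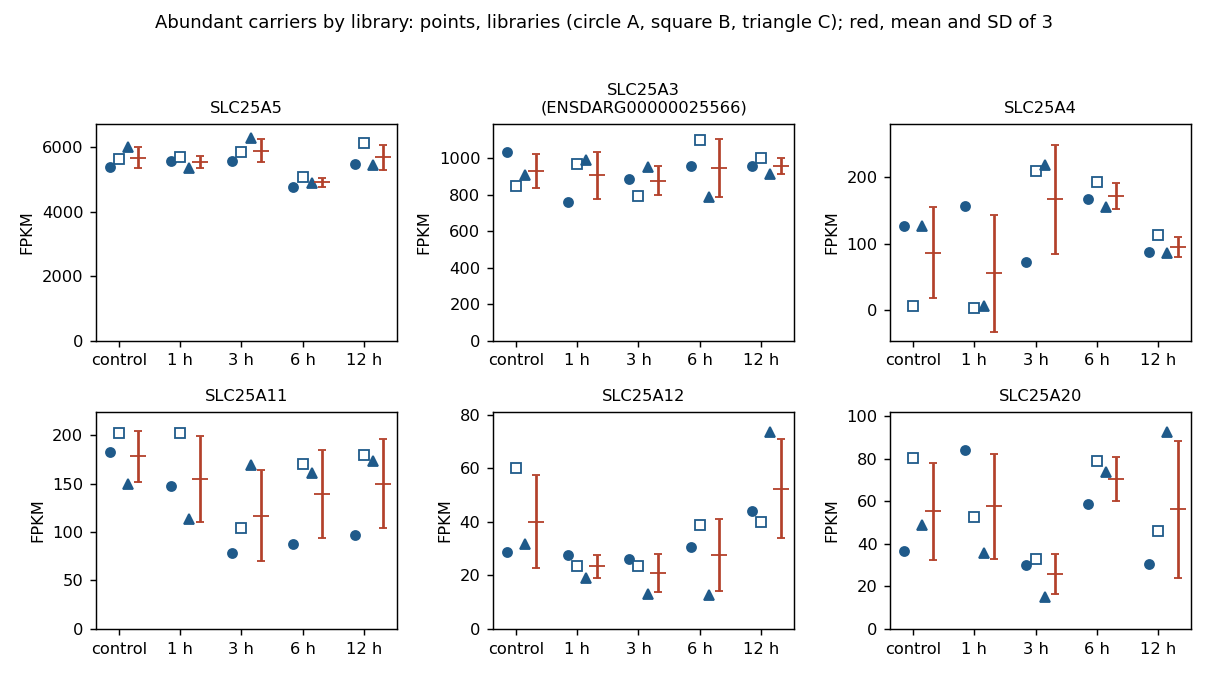
FPKM of 6 abundant carriers in each library, by group on a linear axis; points are libraries (circle A, open square B, triangle C) and red marks give the mean with the SD of 3. SLC25A5 at 6 h lies below the other groups in FPKM as deposited, and its order with 12 h depends on the scaling. SLC25A3 overlaps between all groups, and SLC25A4 has control library B and 1 h columns B and C near 0.

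The calcium-regulated ATP-Mg/phosphate carriers, which change the adenine nucleotide content of the matrix, included 2 copies of SLC25A25. SLC25A25 (ENSDARG00000010572) held 0.393, 3.33 and 2.80 FPKM in the control libraries, 9.62, 42.6 and 12.4 at 1 h, and 51.8, 12.6 and 10.5 at 3 h. At 6 h and 12 h it was at most 3.17 FPKM. The 1 h and 3 h libraries were all above the control, but its differences of 2.69 ± 0.79 and 2.83 ± 0.79 missed the threshold (limma adjusted p = 0.241 and 0.0921). SLC25A25 (ENSDARG00000035468) met the filter through its 1 h libraries alone, at 9.16, 1.02 and 6.18 FPKM, and was at most 0.899 FPKM elsewhere. The filter thus selected this copy for high 1 h levels. Its 1 h difference of 2.11 ± 0.54 is a description, not a test, and missed the threshold (limma adjusted p = 0.147). slc25a24 held 4.37 to 5.53 FPKM at 6 h and 14.5 to 25.1 at 12 h, with no overlap, and did not pass the test. slc25a23a, of the same kind, was at most 5.31 FPKM.

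Organic acid carriers were led by SLC25A11, which exchanges oxoglutarate for malate. It lay between 78.3 and 202 FPKM, with 150 to 202 in the control and 78.3 to 169 at 3 h. SLC25A1 (ENSDARG00000076381), a citrate carrier, held 0.0293, 1.14 and 0.199 FPKM in the control libraries and 5.52, 2.28 and 3.23 at 3 h. These groups did not overlap, and the difference of 1.70 ± 0.64 missed the threshold (limma adjusted p = 0.225). slc25a1a, the other citrate carrier copy, was listed at 0 in all 3 libraries at 3 h and in 1 control library. Both copies of the dicarboxylate carrier SLC25A10 and the oxodicarboxylate carrier SLC25A21 were at most 10.6 FPKM in the 15 libraries. None of the 6 organic acid carriers passed the test in the 7 comparisons.

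Among the 8 amino acid carriers none passed the test in the 7 comparisons. SLC25A12, an aspartate/glutamate carrier of the malate-aspartate shuttle, held 28.7, 60.2 and 31.7 FPKM in the control libraries and 26.2, 23.5 and 12.9 at 3 h. SLC25A38 (ENSDARG00000059805), whose human counterpart imports glycine for haem synthesis, was listed at 0 in the control, 6 h and 12 h libraries. It held 16.1, 1.22 and 5.12 FPKM at 3 h and 9.00 in 1 h column A. No fold is given against libraries at 0. This copy met the filter through those same libraries, so its 3 h difference of 2.62 ± 0.79 is a description. It missed the threshold (limma adjusted p = 0.123). slc25a22a, a glutamate carrier, had the smallest p of the family at 12 h. It held 1.3, 0.0452 and 0.263 FPKM in the control libraries, was listed at 0 in all 6 h libraries, and reached 8.15, 5.25 and 8.76 FPKM at 12 h. Its 12 h libraries lay above the control, but the log2 difference, 2.51 ± 0.67, did not pass the test (limma adjusted p = 0.340). SLC25A15 (ENSDARG00000063539), an ornithine carrier, ranged from 0 to 39.9 FPKM and was lowest at 6 h, at 0, 2.50 and 0.130. The branched-chain amino acid carrier copies SLC25A44 (ENSDARG00000035905) and SLC25A44 (ENSDARG00000045927) reached 20.4 and 3.69 FPKM, the glutamate carrier slc25a18 11.7 and SLC25A38 (ENSDARG00000074533) 6.47.

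Of the carnitine and related carriers, SLC25A20 exchanges acylcarnitines for carnitine so that fatty acids can be oxidised in the matrix. It held 36.5, 80.6 and 48.9 FPKM in the control libraries, 29.9, 32.7 and 15.0 at 3 h, and 58.8, 79.1 and 73.7 at 6 h. The 3 h libraries lay below those of the control and of 6 h, and the difference between 6 h and 3 h, 1.47 ± 0.48, missed the threshold (limma adjusted p = 0.154). SLC25A47, known as a liver-rich carrier in mammals, held 2.16 to 5.71 FPKM in the control libraries and 6.68 to 12.8 at 3 h. Its copy slc25a47b was above 0 in 8 of 15 libraries and reached 20.3 FPKM in 3 h library A.

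Of the 11 cofactor and nucleotide carriers SLC25A33 was the one called in the 7 comparisons. At 3 h 9 of the 11 had a negative log2 difference with the control, with a median of -0.61 beside -0.12 over all gene IDs. The organic acid carriers (5 of 6 negative, median -0.61) and the carnitine and related carriers (3 of 4, -0.59) had similar medians at 3 h. The amino acid carriers did not (3 of 8 negative, median 0.26). Between 6 h and 3 h 10 of the 11 cofactor and nucleotide carriers were positive, with a median of 0.61 beside 0.06. That comparison uses the same 3 h libraries, so it is not a separate observation. slc25a39, a glutathione carrier, held 13.4, 10.8 and 13.3 FPKM in the control libraries and 5.85, 7.62 and 2.93 at 3 h, without overlap. slc25a40, its relative, held 4.14, 0.738 and 1.02 FPKM in the control libraries and 7.86, 13.4 and 10.5 at 6 h. That 6 h difference was the largest positive one of the family, at 2.12 ± 0.83, and missed the threshold (limma adjusted p = 0.844). slc25a51b, a relative of the NAD carrier of human mitochondria, held 9.92 to 14.7 FPKM in the control libraries and 5.23 to 9.35 at 3 h. SLC25A42, a coenzyme A carrier in human mitochondria, ranged from 1.65 to 47.9 FPKM over the 15 libraries, both extremes at 1 h. SLC25A32 (ENSDARG00000089791), a folate or flavin carrier, ranged from 2.59 to 27.5 FPKM, and its copy SLC25A32 (ENSDARG00000026835) from 0 to 7.80. The pyrimidine nucleotide carrier slc25a36b, the coenzyme A-related SLC25A16 and the peroxisomal SLC25A17 were at most 10.8, 9.46 and 1.96 FPKM.

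The mitoferrins, which bring iron into mitochondria for haem and iron-sulfur clusters, were low. SLC25A28 was at most 2.22 FPKM and SLC25A37, the erythroid form first studied in zebrafish mutants, at most 5.69 FPKM in the 15 libraries. Their groups overlapped in the comparisons with the control, and neither passed the test in the 7 comparisons.

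Carriers of less certain substrate held 2 of the wider differences that missed the threshold. SLC25A35 stood at 6.60, 16.2 and 10.4 FPKM in the control libraries, 0, 0 and 9.52 at 1 h, 2.19, 0 and 0 at 3 h, 0.755, 0 and 0 at 6 h, and 4.48, 10.2 and 4.19 at 12 h. Every 3 h and 6 h library was below every control library, with log2 differences of -2.95 ± 0.83 and -3.24 ± 0.83 (limma adjusted p = 0.0936 and 0.483). SLC25A43 stood at 9.85, 17.3 and 17.6 FPKM in the control libraries and 39.5, 50.6 and 61.0 at 3 h. The 3 h libraries were above those of the other 4 groups, and the difference with the control, 1.71 ± 0.59 with a ratio of means of 3.38, missed the threshold (limma adjusted p = 0.184). slc25a43 and slc25a5 are neighbours in the RefSeq gene table, and SLC25A5 did not follow this order of levels. slc25a55b was the most abundant of this group, at 13.8 to 115 FPKM, while slc25a55a and SLC25A34 were at most 6.33 and 6.51 FPKM. SLC25A46, an outer membrane protein linked to mitochondrial shape, reached 29.6 FPKM in 12 h library A and was at most 6.04 in the other libraries.

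Further carriers had the largest log2 differences with the control without passing the test. At 1 h slc25a47b differed by -1.60 ± 1.18 (limma adjusted p = 0.731) and at 3 h slc25a1a by -1.45 ± 0.98 (limma adjusted p = 0.561). At 6 h SLC25A15 (ENSDARG00000063539) differed by -1.92 ± 1.07, UCP1 by -1.84 ± 0.94 and SLC25A27 by 1.49 ± 0.69, with limma adjusted p between 0.889 and 0.962. SLC25A27 met the filter only through 1 h and 6 h libraries, so its 6 h difference is a description, not a test. At 12 h UCP1 differed by 2.54 ± 0.94 and SLC25A46 by 1.53 ± 0.90 (limma adjusted p = 0.552 and 0.728). The 12 h differences below the control were -1.41 ± 0.83 for SLC25A32 (ENSDARG00000026835), -1.29 ± 1.18 for slc25a47b and -1.15 ± 0.70 for ucp3, with limma adjusted p between 0.728 and 0.823. Each of these had an SE of at least 0.69. The 12 h libraries A, B and C of SLC25A32 (ENSDARG00000026835) lay below the control but held 11, 1 and 12 reads.

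From 3 h to 6 h the 4 carriers that fell were 8.16% of the members, against 0.598% of all gene IDs that fell and 1.11% called either way. With any 1 of the 6 libraries left out the count was 1 to 3. All 6 h libraries lay below all 3 h libraries for 11 carriers, 22.4% against 8.19%, and above them for 5, 10.2% against 11.4%. The 11 include SLC25A38 (ENSDARG00000059805), which met the filter through its 3 h levels, so that share is a description. At 6 h against the control limma called 0 carriers, as it called 0% of all gene IDs. There 3 carriers had an unadjusted p under 0.05, and 5.55% of all gene IDs did. At 12 h against the control the count was also 0, with 2 carriers at an unadjusted p under 0.05 beside 7.7% of all gene IDs. limma-voom on the recovered reads called 0 carriers in both. Between 3 h and 1 h limma called 0 carriers, against 0.204% of all gene IDs, and limma-voom called 2; 9 carriers had an unadjusted p under 0.05, beside 11.1% of all gene IDs. Between 12 h and 6 h limma called 0 carriers, against 0.124% of all gene IDs, and limma-voom called 1; 6 had an unadjusted p under 0.05, beside 11.1%.

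Calls among other genes that work with the carriers are given by list. Of all gene IDs, 0% to 1.36% were called in each of the 7 comparisons. Lists this small cannot show whether 0 or 1 call differs from those shares. Of 17 genes that import carrier proteins into mitochondria, such as the TIM22 complex and its chaperones, 0 passed the test against the control at any time; AGK, a TIM22 subunit, rose from 3 h to 6 h by 2.84 ± 0.67 (limma adjusted p = 0.04995). Of 18 genes listed as other mitochondrial transporters, 0 passed in the 7 comparisons. The transporter list was set apart from the members by gene symbol, so it may hold relatives of the family. Of 10 acylcarnitine enzymes, 4 malate-aspartate shuttle enzymes and 2 mitochondrial creatine kinase genes, 0 passed as well. The smallest p at 3 h in these lists belonged to MTCH2 and MPC1 (-1.54 ± 0.57 and -0.65 ± 0.26), ACADS and CPT1B (-1.14 ± 0.41 and 1.31 ± 0.54), and MDH2 and GOT2 (-0.40 ± 0.29 and -0.79 ± 0.66), with limma adjusted p between 0.205 and 0.657. Negative differences at 3 h numbered 15 of 18 in the transporter list, 8 of 10 acylcarnitine enzymes and 3 of 4 shuttle enzymes. Their medians were -0.31, -0.65 and -0.21, beside -0.12 over all gene IDs. Of the haem and iron-sulfur genes 13 of 15 were negative at 3 h (median -0.28), and of the import genes 11 of 17 (-0.17). Of 15 haem and iron-sulfur genes ALAD, a haem synthesis enzyme, rose from 3 h to 6 h by 2.56 ± 0.58 (limma adjusted p = 0.0382), and the other 14 did not pass. Of 16 ATP synthase genes MT-ATP6 passed, with 0.96 ± 0.23 at 3 h (limma adjusted p = 0.0497). Among 13 mRNAs encoded by the mitochondrial genome MT-ND2 and MT-ND4 rose at 1 h. The signs were positive for all 13 at 1 h, 3 h and 12 h and for 12 of them at 6 h. Their median log2 differences were 1.06, 0.82, 0.42 and 0.47 at 1, 3, 6 and 12 h. Over all gene IDs the medians were -0.12, -0.12, -0.02 and 0.32, so at 12 h that median was positive too. It depended on the scaling, at 0.10 with median ratio scaling and -0.01 with quantile normalization. Whether the 12 h signs of the 13 mRNAs go beyond the general shift was not tested.

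Some marker genes of other cell types also passed the test. Of all gene IDs, 1.36% were called at 3 h, 1.11% from 3 h to 6 h and 0.226% at 1 h. The marker sums below were not tested themselves. Leukocyte markers summed to 125 to 421 FPKM at 3 h against 51.7 to 59.0 in the control, and of 14 tested MMP9, mmp13a and nccrp1 rose. Of those 14, 9 had positive and 5 negative differences at 3 h, with a median log2 difference of 0.55. The leukocyte list matched 24 gene IDs, and those that did not meet the filter are not in its sums. Thrombocyte markers summed to 72.7 to 136 FPKM at 3 h and 67.9 to 81.4 at 1 h against 24.9 to 29.5 in the control. Of 10 tested, both THBS1 copies rose at 3 h, and 8 had positive and 2 negative differences. The listed markers itga2b and mpl did not meet the filter and are not in these sums. Endothelial markers summed to 12.8 to 30.7 FPKM at 3 h against 48.2 to 57.7, with 0 of 20 passing, and skeletal muscle markers to 104730 to 162620 FPKM against 163260 to 208870, with 0 of 29 passing. Notochord and cartilage markers summed to 68.5 to 219 FPKM at 3 h against 287 to 947, and SOX9 fell, 1 of 16 tested. Epidermis markers spread from 1577 to 9781 FPKM at 3 h against 4432 to 6141, and ITGB4 rose, 1 of 25 tested. Of those 25, 14 had positive and 11 negative differences. Erythroid markers spread from 1068 to 5296 FPKM at 3 h against 2583 to 4969, and 0 of 22 passed. At 6 h the leukocyte sum was 50.8 to 97.2 FPKM, the thrombocyte sum 26.8 to 38.1 and the epidermis sum 826 to 2859. The endothelial sum was then 53.1 to 62.7 FPKM and the notochord and cartilage sum 467 to 899. MMP9, nccrp1 and a THBS1 copy fell from 3 h to 6 h. Of the 14 leukocyte markers 7 were positive and 7 negative in that comparison, with a median of 0.06, as over all gene IDs. Of the 25 epidermis markers 23 were negative and 2 positive, with a median of -1.19, and 0 passed. Between 12 h and 6 h 23 of those 25 were positive and 2 negative, and 0 passed. At 1 h, where SLC25A48 fell, the leukocyte sum was 18.9 to 62.5 FPKM, the endothelial sum 21.2 to 38.5, the notochord and cartilage sum 59.1 to 468 and the skeletal muscle sum 96401 to 154200, with 0 markers of these 4 lists passing. The 1 h libraries also had the fewest gene IDs above 0, at 11443 to 12788. The part of these cell types in the carrier differences was not tested, and in such bulk tissue fewer cells of a type and less RNA per cell cannot be told apart.

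Neural markers were high in a library with high uncoupling protein levels, and so were epidermis markers. The 1 h library of column B held the highest UCP1, UCP2, ucp3 and SLC25A33 levels of its group together with the highest neural sum, 388 FPKM. In 12 h library B, with a neural sum of 1262 FPKM, UCP2 was at 88.0 and ucp3 at 8.49 FPKM. In 3 h library C the neural sum was 156 FPKM, against 57.2 and 64.4 in the other 3 h libraries. That library held the lowest UCP1 and UCP2 levels of its group and the highest ucp3 and SLC25A33 levels. Epidermis markers summed to 8454 FPKM in 1 h column B, the highest of its group. Their sums were 9781, 6059 and 1577 in 3 h libraries A, B and C, 826 to 2859 at 6 h and 9259 to 10756 at 12 h. Leukocyte markers summed to 421, 322 and 125 FPKM in 3 h libraries A, B and C and to 24.3 in 1 h column B. The part of these tissues in the carrier levels was not tested. Without 1 h column B and 12 h B SLC25A48 stayed past the threshold at 1 h (limma adjusted p = 0.0492). Neither library belongs to the control, 3 h or 6 h groups, so the differences among those groups do not contain them, although the estimate of spread shared by the 15 libraries does.

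The filter left 13 gene IDs of the family out. Just inside it, with 3 libraries at 1 FPKM or more, were SLC25A25 (ENSDARG00000035468), SLC25A17 and slc25a14. Just outside, with 2 such libraries, were SLC25A3 (ENSDARG00000027424), SLC25A29 (ENSDARG00000057352), SLC25A1 (ENSDARG00000080000) and slc25a51a, whose highest levels were 2.66, 1.72, 1.70 and 2.47 FPKM. The ADP/ATP carrier SLC25A6 reached 11.7 FPKM in 12 h library B and was at most 0.723 FPKM in the other libraries.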

How the data were processed

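Per the labels' protocols and the submitters' processing notes, the authors aligned paired-end Illumina reads with HISAT to GRCz11 (Ensembl release 106) and computed the deposited FPKM with StringTie and edgeR; their versions and strand settings were not stated. The 3 columns named for 5 h match no sample and were not used. Symbols were found for 29201 of 32520 gene IDs. Gene IDs with at least 1 FPKM in 3 of 15 libraries were kept (13706) and R 4.3.3 with limma 3.58.1 modelled log2(FPKM + 1) per gene ID (trend, 5 groups, 2-sided, threshold 0.05). Counts were recovered by dividing each gene's FPKM, scaled within its library, by the largest step that made its values whole. All 20690 gene IDs above 0 in at least 2 libraries were whole within 0.001. Many steps were tried, so gene IDs above 0 in few libraries would be whole almost whatever their values and are no check. Alternatives were a pseudocount of 0.1, no filter, other scalings, array weights, limma-voom, symbols summed, fits of 2 groups, a replicate block, the submitters' rule (unadjusted p under 0.05 and log2 difference over 1) and each library left out; leaving out both libraries with high neural markers was chosen after seeing the data. Carriers past the threshold, the 3 largest differences each way with the control, the 10 most abundant, and all ADP/ATP, phosphate, uncoupling and iron carriers were named. Scripts were tested on simulated data. The members and lists were chosen with earlier results of these data known. Values of 1 carrier are not reported here.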

Additional observations from a re-analysis of the deposited data

Results flagged for a closer look

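For 4 carriers the difference with the control at 3 h and that at 6 h were themselves different, by the limma contrast of the 6 h with the 3 h libraries, in which the control drops out. The log2 difference between 6 h and 3 h was -5.56 for UCP1, -4.15 for ucp3, -3.29 for SLC25A33 and -3.13 for UCP2. All 3 libraries at 6 h lay below all 3 at 3 h for each of them, as for 8.19% of all gene IDs. These 4 were picked by that same contrast, so the separation is no further evidence.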

How the results depend on the processing

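No carrier past the threshold changed direction under any alternative. Against 1 carrier called at 1 h, no filter, the 2-group fit and the replicate block each gave 0, leaving out 1 h B and 12 h B gave 2 and the submitters' rule 8; single libraries left out gave 0 to 2. Against 2 at 3 h the counts were 1 without a filter, 6 with array weights, 4 with limma-voom, 0 in the 2-group fit and 11 by the submitters' rule; single libraries left out gave 1 (control A or 3 h A) to 4 (control C). The submitters' rule gave 3 at 6 h and 2 at 12 h. Between 3 h and 1 h limma-voom gave 2, the replicate block 1, 1 h B and 12 h B left out 1 and the submitters' rule 9, with 0 to 1 on leaving out single libraries. Against 4 from 3 h to 6 h there were 2 without a filter, 1 in the 2-group fit and 14 by the submitters' rule; single libraries left out gave 1 (3 h A or 6 h C) to 3. From 6 h to 12 h array weights gave 1, limma-voom 1 and the submitters' rule 6. The F test's 5 became 2 without a filter and 2 (without 3 h A) to 7 on leaving out single libraries. The causes were not tested, except that a 2-group fit has fewer libraries. The call of UCP2 at 3 h held without each of the 6 libraries compared, with adjusted p of 0.0519 in the 2-group fit. ucp3 lost its 3 h call without control A (0.0730) or 3 h A (0.0526). From 3 h to 6 h UCP1 was lost without 3 h A (0.0516), UCP2 without 3 h A, 6 h A or 6 h C (0.0662, 0.0661 and 0.0517) and ucp3 without 6 h C (0.0517). Same-letter libraries correlated between -0.135 and 0.134 in their deviations, so letters were not taken to pair them. Over all gene IDs limma and limma-voom called 31 and 83 at 1 h, 187 and 329 at 3 h, 0 and 11 at 12 h, 28 and 74 between 3 h and 1 h, 17 and 27 between 12 h and 6 h, and 216 and 504 by the F test. Levels under about 0.1 FPKM rest on few reads.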
